A study of Caenorhabditis elegans with 2 samples.

Results

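Binding of the Spalt-family zinc-finger protein SEM-4 was examined around 9 genes of touch receptor neuron and HSN motor neuron fate. These were unc-86, mec-3, alr-1, mec-12, egl-44, egl-46, hlh-3, ast-1 and tph-1, 9 of the 19973 protein-coding genes annotated on the 6 chromosomes. Each gene was taken with 10000 bp on either side, which gave windows of 21301 to 32029 bp and 224.013 kb in all, and every peak summit inside was listed. The measurement was ChIP-seq against eGFP-SEM-4 in whole L2 larvae of Caenorhabditis elegans strain OP57, described as unc-119(ed3) III; wgIs57 with an insertion targeting sem-4, of mixed sex and unknown age. There were 2 replicates of 1 group and no second condition, and all animals carried the same transgene. What drives the tagged protein and whether it is present in each of the neurons discussed are not given in the labels.

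The touch receptor neurons sense gentle touch to the body. UNC-86, a POU homeodomain protein, switches on mec-3, a LIM homeodomain gene, and the 2 proteins together activate genes such as mec-12 that make up the touch cell. The HSN neurons drive egg laying with serotonin, and UNC-86, HLH-3, EGL-46, AST-1 and SEM-4 act there to bring on genes such as tph-1. Genetics has also placed SEM-4 as a repressor of mec-3 in cells that do not become touch neurons. Both cell types are a tiny part of a larva, and occupancy in fewer cells cannot be told apart from less occupancy per cell in whole animals.

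The 5 stretches below surround summits on which the results turn, each 101 bp centred on a pooled summit and read from the plus strand of the RefSeq WBcel235 (ce11) sequence. Capitals mark TTGTCT or TTGTGT on either strand, hexamers that match a site described for SEM-4. The first lay just upstream of mec-12, the second downstream of tph-1, the third in intron 1 of egl-44, the fourth in intron 2 of ast-1 and the fifth in intron 1 of unc-86.
mec-12 upstream, chrIII:3139302-3139402: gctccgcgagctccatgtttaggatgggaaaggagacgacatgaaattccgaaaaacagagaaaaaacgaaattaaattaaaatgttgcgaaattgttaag
tph-1 window, chrII:7555596-7555696: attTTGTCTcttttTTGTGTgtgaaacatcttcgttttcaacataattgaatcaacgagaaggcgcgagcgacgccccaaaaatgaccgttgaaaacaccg
egl-44 intron 1, chrII:5932568-5932668: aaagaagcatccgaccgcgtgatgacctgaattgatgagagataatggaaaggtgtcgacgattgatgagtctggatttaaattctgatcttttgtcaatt
ast-1 intron 2, chrII:4133411-4133511: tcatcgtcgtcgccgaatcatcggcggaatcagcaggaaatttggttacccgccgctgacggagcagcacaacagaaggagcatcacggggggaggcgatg
unc-86 intron 1, chrIII:8215253-8215353: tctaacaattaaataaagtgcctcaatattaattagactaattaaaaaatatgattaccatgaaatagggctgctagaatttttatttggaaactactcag

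The windows held 83 relaxed summits and 3 thresholded ones. The thresholded share was lower than that of the genome, a difference that 3 summits do not resolve. The authors' pooled relaxed list, called on both replicates together, had 83 summits in them, and 3 of these (3.61%, exact binomial 95% interval 0.752 to 10.2, counting error only) were in the authors' thresholded list. Over the genome 8.3% of the 30000 pooled peaks were in that list, a share inside the interval. At the mean density of the genome the windows would hold 67.0 pooled and 5.56 thresholded summits. The 3 summits lay at mec-12, ast-1 and tph-1, so that 3 of 9 genes had a thresholded summit in their window, against 37.6% of all protein-coding genes and 38.5% of the 13696 genes with windows as long as these. The promoter window, which ran from 1000 bp before to 200 bp past any protein-coding start, held a thresholded summit for mec-12 alone, against 8.71% of all genes. A gene body summit was thresholded for ast-1 alone, against 2.77% of all genes. Each of these counts rests on a single member.

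Pooled signal in the 83 summits ran from 7.63 to 58.1 with a median of 13.1, close to the median of 13.0 over all pooled peaks. The lowest signal in the thresholded list, which held the 2490 pooled peaks of highest signal, was 40.3. Signal is the authors' value for each peak and is read only within a list. The lists carry no read counts, so depth and counting error per peak are unknown.

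**Figure D1:**
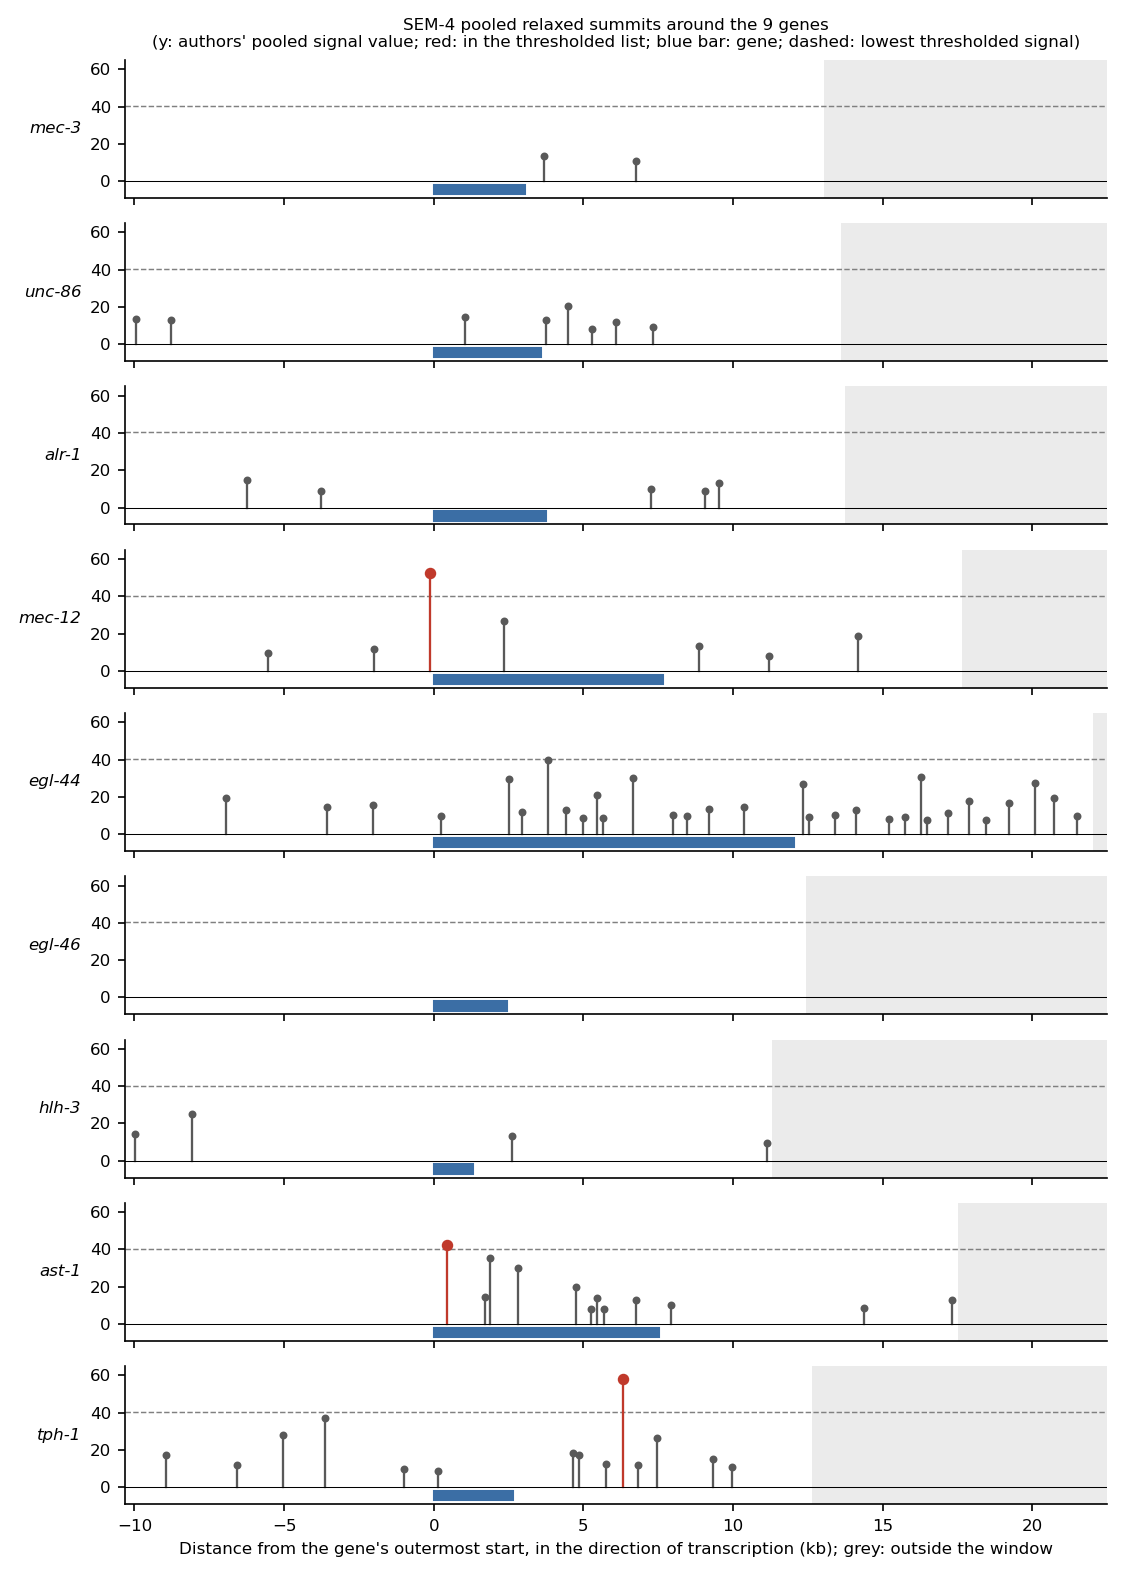
Pooled relaxed summits (points on stems; y, the authors' pooled signal value) along the 9 windows, plotted by distance in kb from each gene's outermost start in the direction of transcription. Red points mark the 3 thresholded summits at 52.4 (mec-12), 42.2 (ast-1) and 58.1 (tph-1 window), blue bars the gene bodies, and the dashed line the lowest thresholded signal of 40.3. The egl-44 window is filled with summits under the line and the egl-46 window holds none.

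At the regulators at the head of the touch neuron pathway no thresholded summit was listed. The windows of unc-86, mec-3 and alr-1 held 15 pooled summits, of which the best had a signal of 20.4. With 8.3% of all pooled peaks thresholded, a count of 0 in 15 is close to the background. No start of mec-3 had a pooled summit in its promoter window, nor had alr-1, whose Aristaless-like homeodomain protein makes touch neuron differentiation reliable. Most genes share this, since 38.4% of all protein-coding genes had a pooled summit in that window.

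At mec-3 (WBGene00003167; IV, 10458816 to 10461867, minus strand) the window held 2 pooled summits, both downstream of the gene. The nearer one, at 10458175, had a pooled signal of 13.5, with 6.18 in replicate 1 (rank 27929 of 30000) and 6.18 in replicate 2 (rank 12600). It ranked 14249 in the pooled list, and its nearest start was that of the chemoreceptor gene srb-17, 938 bp away. The other summit, at 10455092 with 10.6, overlapped no peak of either replicate. From 10458175 the next pooled summit came 23787 bp further, beyond the gene and its upstream sequence, a gap exceeded by 1.97% of the 29994 gaps between neighbouring pooled summits (median gap 1329 bp). Long gaps cover more of the genome than their number implies, so the percentage is a description of the gap and says little of the gene. Neither replicate alone had a peak in the gene or upstream of it within the window.

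The sequence upstream of mec-3 is shown because genetics places mec-3 under SEM-4 while the lists hold no summit there. It reads 5′ to 3′ along the gene, the 300 bases ending just before the outermost start, with matches to the 2 hexamers in capitals (here both strands, so that matches on the opposite strand appear as ACACAA or AGACAA).
mec-3 upstream, minus strand of chrIV:10461868-10462167: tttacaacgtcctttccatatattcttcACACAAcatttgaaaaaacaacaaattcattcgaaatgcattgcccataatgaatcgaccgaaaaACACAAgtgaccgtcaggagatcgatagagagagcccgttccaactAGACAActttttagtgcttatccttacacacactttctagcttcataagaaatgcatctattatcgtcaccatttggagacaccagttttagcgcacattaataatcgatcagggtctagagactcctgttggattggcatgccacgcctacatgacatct

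In this stretch 3 matches lay 272, 207 and 161 bp upstream of the start, all on the strand opposite to the gene. Of all protein-coding genes, 38.1% held at least 1 match in the same 300 bases and 1.66% held 3 or more. The length of the stretch was chosen after the matches were seen, and a match is a description of letters and not a site of binding.

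At unc-86 (WBGene00006818; III, 8212740 to 8216336, minus strand) the window held 8 pooled summits. A single one lay in the gene, at 8215303 in intron 1 of the longest transcript and 650 bp upstream of the inner start, with a pooled signal of 14.9 (rank 12341), against 5.85 (rank 29755) for replicate 1 and 3.45 (rank 24121) for replicate 2. Both replicates thus placed it in the lowest part of their lists. The best summit of the window stood 2793 bp downstream of the nearest unc-86 start, at 8211860 between genes, with 20.4 (rank 7538). Replicate 2 placed it at 3812 and replicate 1 at 14733. The nearest pooled summit upstream of the gene stood 8794 bp from its start, while replicate 2 alone had 3 peaks between 8219140 and 8220340 with signals of 3.73, 4.16 and 4.72. The nearest thresholded summit lay outside the window, 11439 bp upstream at 8227775 with 108, and was nearest to the start of fbxl-1.

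At alr-1 (WBGene00044330; X, 11121871 to 11125620, minus strand) 5 pooled summits were found, all in the flanks and with signals of 8.69 to 14.9. The best stood 6246 bp upstream at 11131866, overlapped no peak of replicate 1 and ranked 19302 in replicate 2 with 4.34. A further summit 3759 bp upstream, at 11129379 with 8.76, was matched in replicate 1 (rank 18773) and not in replicate 2. The 2 upstream summits thus each rested on a different replicate. Inside the gene only replicate 2 had a peak, at 11122039 with 4.06.

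The structural gene of the touch cell had a thresholded summit just upstream of its start. The gene mec-12 (WBGene00003175; III, 3131574 to 3139234, minus strand) encodes an alpha-tubulin of the specialised microtubules of these neurons. Its thresholded summit at 3139352 lay 118 bp upstream of the only start, in sequence with no annotated gene, as printed first above. The pooled signal was 52.4 (rank 1514), under the median of 57.7 over the thresholded list. Replicate 1 gave it 26.8 (rank 2328, summit at the same base) and replicate 2 gave it 26.9 (rank 1124, summit 17 bp away). It was the only summit of any member within the top 2490 of both replicates. In intron 2, 2352 bp downstream of the start, a second pooled summit at 3136882 had 26.6 at pooled rank 5066, and ranked 6003 in replicate 1 and 10803 in replicate 2. The other 5 summits of the window had signals of 8.05 to 18.5 and lay in the flanks.

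The egl-44 locus held a dense field of peaks under the threshold. EGL-44, a TEAD-family protein, works with the zinc-finger protein EGL-46 to keep the touch programme off in the FLP neurons. The gene (WBGene00001208; II, 5928802 to 5940830, plus strand) had 31 pooled summits in its window, or 0.968 per kb against a genome mean of 0.299. Of all protein-coding genes, 86 (0.431%) had a window at least as dense, and neighbouring genes share windows. Each replicate's own list held 24 summits there. None was thresholded.

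Of the 31 summits, 13 lay in the egl-44 gene body, a count reached by 0.531% of protein-coding genes of any length and by 2.89% of the 1245 genes within 1.5 times its length, and 9 of the 13 lay in intron 1 of the longest transcript. The strongest, at 5932618 in intron 1, was 868 bp upstream of an inner start and had a pooled signal of 39.97 at rank 2539, 49 places below the last thresholded peak. Replicate 1 gave 29.9 at rank 1876 and replicate 2 gave 4.05 at rank 20724, so the peak was high in a single replicate. The next summits of the gene were nearer to even. At 5935469 the pooled signal was 30.2, with 22.8 in replicate 1 (rank 3200) and 12.5 in replicate 2 (rank 4572). At 5931330 it was 29.6, with 15.8 in replicate 1 (rank 6230) and 13.6 in replicate 2 (rank 4063). The gene has 9 annotated starts and thus 4292 bp of promoter window, more than the 1201 to 2402 bp of the others, which bears on its 4 pooled promoter summits.

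The downstream flank of egl-44 held 15 summits, which belonged by nearest start to its neighbours. The best, at 5945087 with 30.6, was nearest to B0034.2 and ranked 4280 in replicate 1 and 4034 in replicate 2. At 7 summits casy-1, the calsyntenin gene, had the nearest start. A casy-1 intron summit at 5946675 had a pooled signal of 17.9, ranked 1926 in replicate 2 with 20.5 and overlapped no peak of replicate 1. Both neighbours are named after their values were seen.

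The partner gene egl-46 stood at the other end. Its window (WBGene00001210; V, 6679123 to 6681573, minus strand) had no pooled summit, which was so for 14.2% of protein-coding genes. The pooled list was empty from 6661847 to 6699224, a gap of 37377 bp that 0.767% of gaps exceeded. Replicate 1 had 1 peak in the window, 6944 bp upstream with 6.59 (rank 25865). Replicate 2 had 4, with signals of 3.44 to 6.09, of which the one at 6680430 lay in a coding exon of egl-46 with 3.72 (rank 22542).

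**Figure D2:**
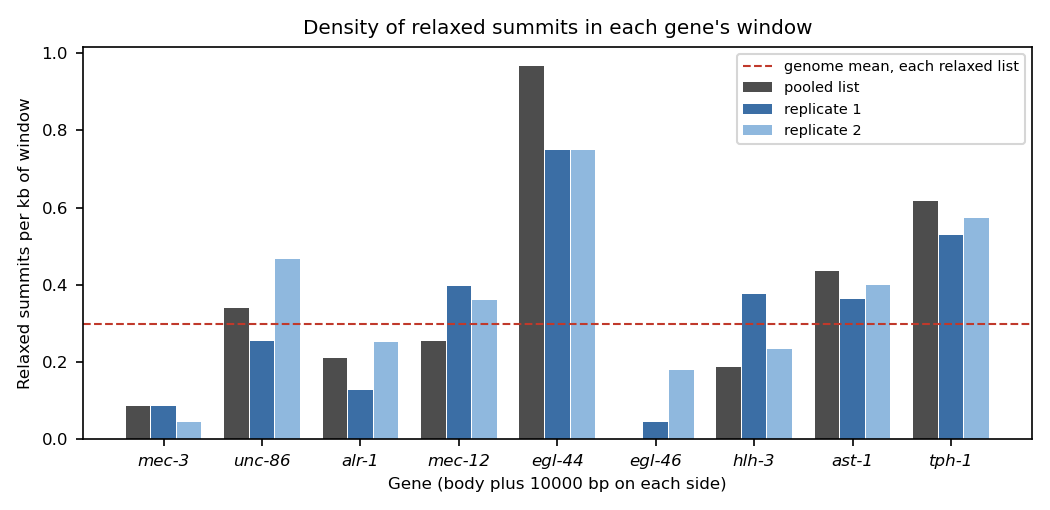
Relaxed summits per kb in each gene's window (bars from 0) for the pooled list and for each replicate's own list, beside the genome mean of 0.299 per kb, which is the same for all 3 lists of 30000 peaks. The egl-44 bars are the tallest in all 3 lists, with 0.968 in the pooled list, and the mec-3 window has 0.0868 and the egl-46 window 0 in the pooled list.

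Among the regulators of the HSN neuron, ast-1 carried summits along its length and hlh-3 had none in its gene. Neither had a pooled summit in its promoter window, where 38.4% of all protein-coding genes had one. HLH-3 is a proneural bHLH protein of the Achaete-Scute family. Its gene (WBGene00001950; II, 9086608 to 9087908, plus strand) had 4 pooled summits in the window, none in the gene or its promoter window. The best, at 9078523, was 8085 bp upstream with 25.1, ranked 8698 in replicate 1 and 5858 in replicate 2. The only summit with hlh-3 as nearest start lay 2613 bp downstream of it with 13.5 and overlapped no peak of either replicate. The closest thresholded summit was 12590 bp downstream of the start, outside the window, with 60.6.

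AST-1 is an ETS-domain protein that also specifies dopamine neurons. Of the 12 pooled summits in its window (WBGene00020368; II, 4127837 to 4135359, minus strand), 9 lay in the gene body, a count reached by 1.32% of protein-coding genes of any length and by 2.48% of the 2421 genes within 1.5 times its length. The strongest was the thresholded summit at 4134922 in exon 1, within the 5′ UTR and 437 bp downstream of the start. Its pooled signal was 42.2 (rank 2275), with 25.1 in replicate 1 (rank 2668) and 16.4 in replicate 2 (rank 2906). In each replicate alone it fell just outside the top 2490. The 101 bp around it held 68.3% G and C, the richest of the 3 thresholded summits, against a median of 46.5% over the thresholded list.

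The stronger summits of ast-1 lay in the part of the gene nearest its start. The summit in intron 2 at 4133461, printed above, had a pooled signal of 35.4 (rank 3152), and ranked 2462 in replicate 1 and 5182 in replicate 2. A weaker pooled summit at 4133660, with 14.4, overlapped the same replicate peaks. The replicate 1 summit lay 6 bp from 4133461, while that of replicate 2 lay 153 bp from 4133461 and 46 bp from 4133660. In intron 5 a summit at 4132526 had 29.8, ranked 4404 in replicate 1 and 4703 in replicate 2. Introns 5 and 7 held 5 and 1 of the summits, and the 5 beyond the summit at 4132526 had signals of 7.86 to 19.9. Of these 9 summits, 3 in intron 5 shared a single replicate 1 peak (rank 8317) and overlapped none of replicate 2. Upstream of the gene the pooled list was empty for 10496 bp from the thresholded summit, so that all 12 summits lay inside or downstream of ast-1. Replicate 2 alone had peaks in the upstream flank, at 4141970, 4143176 and 4145139 with signals of 4.02, 4.57 and 7.68.

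The serotonin gene tph-1, for tryptophan hydroxylase, had the strongest summit of all windows, but at a neighbour. At L2 this gene is known to be active in other serotonin neurons, while the HSN cells mature later. The gene (WBGene00006600; II, 7549335 to 7551983, plus strand) had 14 pooled summits in its window, or 0.618 per kb. The thresholded one, at 7555646, stood 6269 bp downstream of the nearest tph-1 start and 54 bp upstream of the start of ZK1290.14. It had a pooled signal of 58.1 (rank 1224), with 38.9 in replicate 1 (rank 1041) and 15.3 in replicate 2 (rank 3332).

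Near the tph-1 start the signal was low. A summit 998 bp upstream had 9.78, overlapped only replicate 1 (rank 19589), and was nearer to fbxa-224, whose start was 193 bp away. Replicate 2 alone had a peak 425 bp upstream, at 7548910 with 3.57 (rank 23397), where tph-1 had the nearest start. A summit 110 bp downstream, at 7549487 in intron 1, had 8.62 and overlapped no peak of either replicate. It also lies in the annotated non-coding gene ZK1290.18. The best summit upstream, at 7545692, lay 3643 bp from the start with 37.1 (rank 2918), and ranked 2691 in replicate 1 and 6400 in replicate 2. Its nearest start was that of the collagen gene rol-8, at 1584 bp. A stronger replicate 2 peak also overlapped this pooled peak, with its summit further away at 7545504 and a signal of 13.9 (rank 3897).

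A member's own start was the nearest for 31 of the 83 pooled summits (37.3%), and for 2 of the 3 thresholded ones. Over the windows of all protein-coding genes, which overlap and count a summit once per window, the shares were 23.2% of pooled and 21.4% of thresholded summits. Of the 31, 22 came from egl-44 and ast-1. By annotation, 36 of the 83 (43.4%) lay in introns, against 34.7% of all pooled peaks, and 33 (39.8%) lay between genes, against 43.5%. In the members' own bodies 22 of 25 summits (88%) were intronic, against 63.9% over all protein-coding gene bodies, and 22 of the 25 came from egl-44 and ast-1. At least 1 pooled summit was present in the body of 5 members, against 33.3% of all genes, and in the promoter window of 4, against 38.4%. In the whole window this held for 8, against 85.8%.

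Of the 83 pooled summits, 46 (55.4%) had peaks that overlapped a relaxed peak of both replicates by at least 1 bp, against 52.1% over the genome. Over the 46, Spearman's rho between the replicates' ranks was 0.37, against 0.516 over the 15619 such peaks of the genome. Some of the 46 share a replicate peak. A further 21 overlapped replicate 1 only, 11 replicate 2 only and 5 neither. All 3 thresholded peaks overlapped both, as 99.4% did genome-wide, where the authors' thresholding itself used both lists. Among each replicate's own 2490 strongest peaks, replicate 1 had 4 in the windows, 1 each at mec-12, egl-44, ast-1 and tph-1. At ast-1 this was the intron 2 peak (rank 2462) and not the thresholded summit. Replicate 2 had 2, at mec-12 and in the egl-44 window at casy-1. So 4 members had a top peak in replicate 1 (37.2% of all genes) and 2 in replicate 2 (36.8%), with mec-12 and egl-44 in both, and egl-44 through different peaks.

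**Figure D3:**
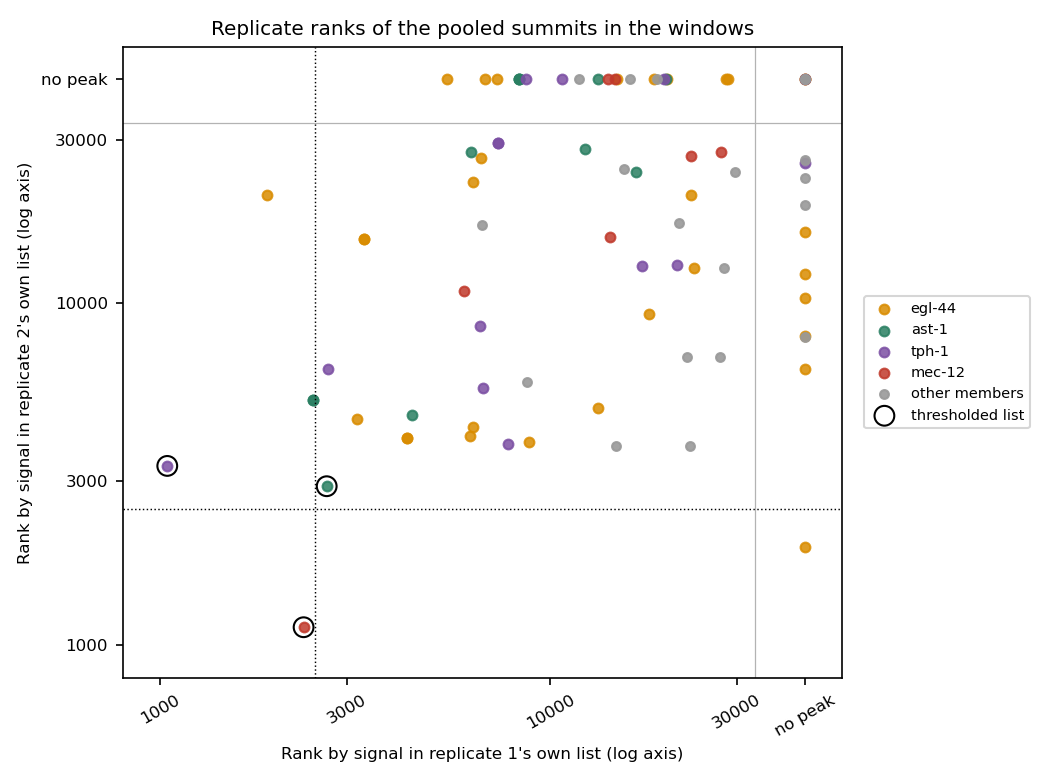
Ranks of the 83 pooled summits in replicate 1's list (x, log axis) and replicate 2's list (y, log axis), with summits that overlapped no peak of a replicate set apart at the margin. Dotted lines mark rank 2490, and circles the thresholded summits, of which only that of mec-12 (2328 and 1124) is inside both lines. The egl-44 intron 1 summit is at 1876 and 20724.

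The hexamers TTGTCT and TTGTGT were present within 50 bp of the summit at 13 of the 83 (15.7%), against 18.6% of all thresholded and 14.1% of the other pooled peaks. Of the 3 thresholded summits only that near ZK1290.14 held them, with 1 copy of each, as the printed sequence shows. The mec-12 and ast-1 summits had none in 101 bp. Anywhere in the peak they were found at 41 of the 83 (49.4%), against 48.2% and 41.9%. In the egl-44 window 8 of 31 summits had a match, while the strongest of them, printed above, had none. In the promoter window of the outermost start every member had 2 or 3 matches, where the median over all genes was 2 and 81.6% had at least 1. The letters thus did not single out the members with a thresholded summit.

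The related genes were compared by the same windows. Of 14 other touch receptor neuron genes, most of them mec genes for channel subunits, tubulin and matrix, 13 had a pooled summit in the window and 6 a thresholded one (42.9%, against 37.6% of all genes). Their windows held 130 pooled summits, of which 11 (8.46%) were thresholded. None of the 11 had the touch gene as nearest start, against 21.4% over all gene windows, and no promoter window held one. The 6 genes were mec-2 (best 60.3), mec-4 (142), mec-10 (112), mec-14 (55.7), mec-15 (67.5) and mec-18 (48.3). At mec-4, a subunit of the touch channel, the summit stood 10142 bp downstream of the start and was nearest to aak-2. At mec-10, its partner subunit, it lay 5017 bp upstream and nearest to nhr-14. The summit in the mec-15 window overlapped no peak of replicate 2. With mec-12 set beside them, it was the only touch gene with a thresholded summit in a promoter window, against 8.71% of all genes.

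Of 16 other HSN genes, all had a pooled summit in the window and 6 (37.5%, against 37.6% of all genes) a thresholded one. Their windows held 192 pooled summits, of which 14 (7.29%) were thresholded, and 10 of the 14 had the HSN gene as nearest start. Without sem-4, the gene that the insertion targets, the counts were 8 of 178 (4.49%) and 5 of 8, against 8.3% and 21.4% over the genome and over all gene windows. In the promoter window 2 of 16 had one, against 8.71% of all protein-coding genes. These were unc-40, the netrin receptor gene, with 70.8 and the zinc-finger gene ham-2 with 45.1. The strongest thresholded summits of these windows were nearest to other genes, at unc-40 to pamn-1 with 134 and at ham-2 to C07A12.18 with 61.9. The window of sem-4 held 6 with 5 nearest to its own start, led by a summit 5496 bp upstream with 91.7. Whether the insertion contributes to the summits at sem-4 was not tested. At ida-1, the gene for an IA-2 homologue of dense core vesicles, 2 lay in the window with ida-1 nearest, the best 3367 bp into the gene with 59.1. The vesicular monoamine transporter gene cat-1 had 1 at 6476 bp downstream of its start with 45.1. The bas-1 window had 1 with 63.0, nearest to daf-4. The median of the best pooled signal per window was 32.6 over the 8 members with a summit, 35.7 over 13 touch genes, 32.1 over the 16 HSN genes and 36.0 over the 17130 protein-coding genes with one.

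**Figure D4:**
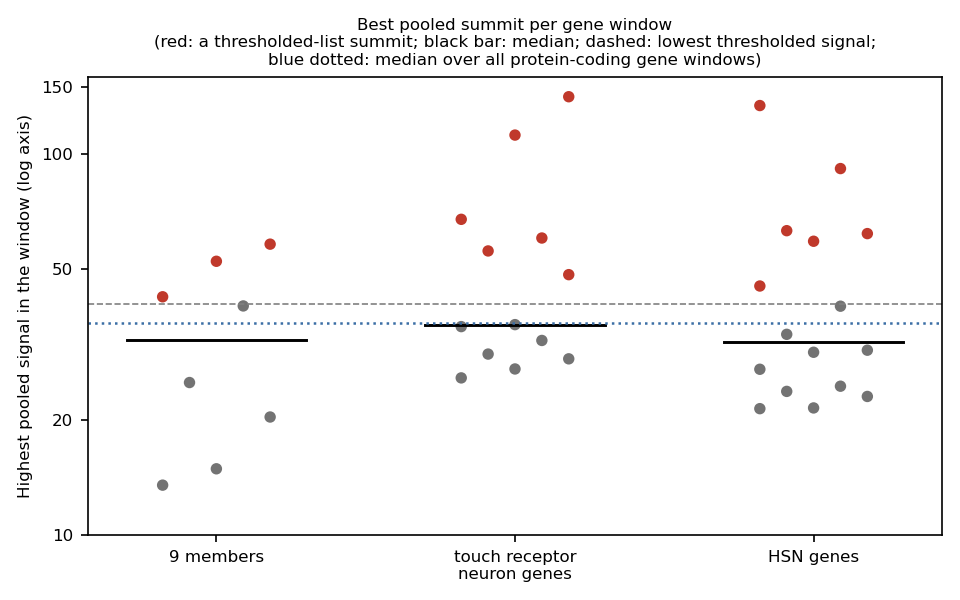
Highest pooled signal in the window (log axis) of each member, each of 14 other touch receptor neuron genes and each of 16 other HSN genes that had a pooled summit. Red points had a thresholded summit in the window, black bars are medians (32.6, 35.7 and 32.1), the dashed line is the lowest thresholded signal (40.3) and the dotted line the median over all protein-coding gene windows (36.0). The medians differ little and all lie under the dashed line.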

How the data were processed

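ChIP-seq of eGFP-SEM-4 was analysed in 2 L2 samples of 1 group through peak lists on ce11. Per the deposited text file lists, the authors called relaxed peaks ("peaks and background as input for IDR") for each replicate and on pooled alignments, each with a control, and derived the optimal thresholded list by the irreproducible discovery rate (IDR). Which aligner, peak caller and IDR threshold were used is not given in the sources used here. Per the same text file lists, the deposited lists are narrowPeak tables, with a signal value per peak in column 7 and the −log10 of a q-value in column 9. The −log10 q was the same for all thresholded peaks and was not used. Depth is unknown. The ce10 lists and the control were not analysed here.

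All 2490 thresholded peaks were pooled peaks and the 2490 of highest signal. No ce11 peak passed a chromosome end of the RefSeq WBcel235 sequence, and genes came from Ensembl release 115. Peaks were placed by summit, in 1-based coordinates, and ranked by signal within a list. A summit in several features was given to coding exons first, then 5′ and 3′ UTRs, non-coding exons, introns and intergenic sequence. Replicate values belong to the overlapping peak (at least 1 bp) with the nearest summit, so 2 pooled peaks can share a replicate peak. No test was made: the design has 1 group, and counts are set beside the same counts over all peaks or protein-coding genes. Members, related genes and windows were chosen with earlier results of these data known. All members, their thresholded summits, their best summits by place, the owners of the nearest start to a thresholded summit and related genes with a thresholded summit were to be named. Other neighbours (srb-17, fbxl-1, B0034.2, casy-1, fbxa-224, rol-8) were named after their values were seen. The labels do not say how the replicates were grown, so their spread may be technical. Alternatives were other flanks, promoter windows, overlap rules, motif windows, a stricter list and each replicate's own top 2490. Leaving out sem-4 and comparing body counts with genes of like length were chosen after seeing the data. Counting, matching and motif steps were tested on simulated data. Computation used Python 3.11.15, numpy 2.4.6, pandas 2.3.3, scipy 1.17.1 and matplotlib 3.10.9.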

Additional observations from a re-analysis of the deposited data

How the results depend on the processing

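With each replicate's own top 2490 peaks in place of the thresholded list, 2 (without replicate 1) to 4 (without replicate 2) summits and as many members' windows were counted, against 3, and 1 to 2 members had one in the promoter window, against 1, egl-44 being the second. Some of these were other peaks than the 3 thresholded ones, as at egl-44 and ast-1. The 1245 peaks of higher signal left 1 summit in 1 member's window (tph-1) and 0 in promoter windows. With flanks of 20000 bp the count was 6 summits at 5 members, and in the gene body alone 1 member (ast-1) had a summit. A promoter window from 2000 bp upstream to 500 bp downstream gave 2 members, with ast-1 added. Wider windows can hold more summits for any gene, and the share of all protein-coding genes at these wider settings is not given here. Within 25 bp of the summit 0 of 3 thresholded summits held TTGTCT or TTGTGT, against 1. The share of pooled summits that were thresholded was 5.17% of 58 with flanks of 5000 bp and 3.75% of 160 with 20000 bp. Over the genome it was 8.3%. These windows overlap the main ones, so their shares are no independent check on the main share. All 3 thresholded peaks kept a match in both replicates at 50% reciprocal overlap and with summits within 50 bp, where 92.7% and 73.6% did so over the genome. The lists hold no read counts, so how depth limits the weak peaks is unknown. No paired analysis was possible because there is 1 group.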
